A study of Mus musculus with 6 samples.

Results

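The tumour suppressor gene Trp53, which encodes p53, and 7 of its target genes, Mdm2, Cdkn1a, Ccng1, Bax, Zmat3, Phlda3 and Sesn2, were followed across 3 established mouse mammary cell lines. The labels call all 3 epithelial, but most of the epithelial marker genes given below were absent or near absent from C57MG. The genes were selected by symbol, and all 8 were among the 11417 genes of the expression table. Each line, BC44, C57MG and HC11, was represented by 2 libraries of untreated cells on plastic. The medium of both BC44 and HC11 was RPMI with 10% serum and insulin at 5 µg/ml, to which epidermal growth factor was added at 10 ng/ml for HC11. C57MG grew in DMEM, also with 10% serum, and insulin at 10 µg/ml. Poly(A) RNA was taken 2 days after the cells were plated and made into directional libraries. Line and medium differed together and cannot be told apart. Whether the 2 libraries of a line came from separate cultures is not given in the sources used here, so p-values measure the spread between these libraries, which may be technical.

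p53 is a transcription factor that is kept low in unstressed cells and is stabilised by DNA damage and oncogene activity. It switches on genes for cell-cycle arrest, cell death, DNA repair and metabolism, and its own inhibitor Mdm2, a ubiquitin ligase that marks p53 for destruction. In the mammary gland loss or mutation of p53 is a frequent step towards tumours, and HC11 cells are known from the literature to carry altered p53. p53 activity is set mostly at the protein level, which RNA levels do not measure, and the files hold no sequence of the transcripts.

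The lines' identities were checked against marker genes. All 8 epithelial markers were at 1 RPKM or more in both HC11 libraries (RPKM is the number of reads per kilobase of a gene, corrected for sequencing depth). In BC44 5 of 8 were, with Krt18 and Cldn3 listed at 0. In C57MG 3 of 8 were in replicate 1 and 1 of 8 in replicate 2, Krt14 (118 and 64.8 RPKM) being the one in both. Cldn3 was listed at 0 in both C57MG libraries and Epcam, Cdh1 and Esrp1 in replicate 2, so most of the epithelial markers were absent or near absent from C57MG. The summed level of the 6 mesenchymal markers was 3282 to 3620 RPKM in C57MG and 203 to 291 in the other lines. Relative to the C57MG mean, the median mesenchymal marker stood at 1.17% and 2.56% in BC44 replicates 1 and 2 and at 0.519% and 0.598% in HC11. The immune markers in the table, Cd68 and Lyz2, summed to at most 21.9 RPKM in C57MG and 2.997 elsewhere. The endothelial genes Pecam1 and Cdh5 summed to at most 2.38 RPKM, and the adipocyte gene Fabp4 reached at most 8.77 RPKM. The part of these markers in the differences below was not tested. Estimated depth was 14540000 to 18540000 reads a library, and the 8 genes rested on an estimated 312 (Sesn2) to 6334 (Ccng1) reads each.

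p53 binds pairs of a short decamer, the p53 half-site, made of a run of purines, a C, a pair of A or T, a G and a run of pyrimidines. The decamer is its own reverse complement, so a search of one strand covers both. The promoters below are shown because these are the genes whose levels are compared, and the letters show where the decamer lies relative to the start of transcription. RefSeq promoter sequences (GRCm38.p6) were matched for 7 of the 8 genes, all but Zmat3. The decamer occurred within 250 bases before an annotated start in 5 of these 7 genes, and in 7.13% of 32851 promoters of the same length (8.20% of 27025 genes). A match of letters is a description and not evidence of binding. Each line gives 120 bases in the direction of transcription, 5′ to 3′, with the decamer in capitals.
Cdkn1a, chr17:29090859-29090978, plus strand: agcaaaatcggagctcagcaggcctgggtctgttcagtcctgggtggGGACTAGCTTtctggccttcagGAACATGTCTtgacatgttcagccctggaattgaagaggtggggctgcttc
Mdm2, chr10:117710880-117710999, minus strand: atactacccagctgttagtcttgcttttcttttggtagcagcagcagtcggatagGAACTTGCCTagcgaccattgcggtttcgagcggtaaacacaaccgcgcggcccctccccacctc
Ccng1, chr11:40755407-40755526, minus strand: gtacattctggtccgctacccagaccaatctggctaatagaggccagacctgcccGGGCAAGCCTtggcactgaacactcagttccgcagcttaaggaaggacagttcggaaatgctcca
Bax, chr7:45467029-45467148, minus strand: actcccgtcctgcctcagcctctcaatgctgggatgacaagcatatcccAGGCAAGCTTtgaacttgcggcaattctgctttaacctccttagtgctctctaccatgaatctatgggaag
Trp53, chr11:69580229-69580348, plus strand: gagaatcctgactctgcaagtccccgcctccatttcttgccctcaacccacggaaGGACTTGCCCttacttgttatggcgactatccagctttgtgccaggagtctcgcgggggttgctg

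Cdkn1a was the gene with 2 such decamers in 1 promoter window. They lay 73 to 64 and 51 to 42 bases before the upstream one of its annotated starts. The 2 do not adjoin each other. Only full matches were marked, and the letters directly after the nearer one, tgacatgttc, depart from the decamer at their first base alone. None was found before the other annotated start of Cdkn1a (window chr17:29093519-29093818). In Mdm2, Ccng1, Bax and Trp53 the decamer began 186, 185, 201 and 75 bases before the start. The windows of Phlda3 (chr1:135765835-135766134, plus strand) and Sesn2 (chr4:132510407-132510706, minus strand) held no such letters before the start, which draws on these windows alone.

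Trp53 itself was highest in HC11. Its level was 53.7 and 56.0 RPKM in the HC11 libraries (54.9 ± 1.62, mean ± SD, n = 2), 37.1 and 34.9 in C57MG (36.0 ± 1.59), and 27.6 and 31.0 in BC44 (29.3 ± 2.38). No library of one line reached into the range of another, and the order HC11, C57MG, BC44 held in every library. The HC11 mean was 1.87 times that of BC44 and 1.52 times that of C57MG. Differences below are on the log2(RPKM + 1) scale, the first line named minus the second, and a difference passed at an adjusted p-value under 0.05. BC44 minus HC11 was -0.89 (SE 0.09) and HC11 minus C57MG 0.59 (SE 0.09), with limma adjusted p-values of 0.000164 and 0.000536. BC44 and C57MG were closer, at -0.29 (SE 0.09, limma adjusted p-value 0.0172) for BC44 minus C57MG. That call was lost without BC44 replicate 1 (-0.21, 0.0930) or without C57MG replicate 1 (-0.25, 0.109). Between 79.0% (BC44) and 89.5% (HC11) of the genes in the table had a lower mean than Trp53. Wrap53 lies head to head with Trp53 on the opposite strand (GENCODE M21), and whether the counting used the strand is not given in the sources used here. Of all tested genes 18.8% had both HC11 libraries above the 4 others, as Trp53 did, and 19.8% had both BC44 libraries below the 4 others.

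Of the 8 genes 5 differed between BC44 and HC11, 3 of them higher in BC44 (Cdkn1a, Bax, Phlda3) and 2 higher in HC11 (Trp53, Sesn2), where 47.7% of all 10759 tested genes differed (24.7% higher in BC44, 23.0% higher in HC11). Between BC44 and C57MG 6 of 8 differed, 1 higher in BC44 (Cdkn1a) and 5 higher in C57MG (Trp53, Ccng1, Bax, Zmat3, Sesn2), against 71.7% of all genes (37.5% and 34.1%). Between HC11 and C57MG 5 of 8 differed, 1 higher in HC11 (Trp53) and 4 higher in C57MG (Ccng1, Bax, Zmat3, Phlda3), against 70.5% (37.4% and 33.2%). These counts were 62.5%, 75.0% and 62.5% of the 8 genes, near the share of all genes in the contrasts with C57MG, and nothing particular to the 8 genes is read from them. Values of the 2 lines were fully apart for 5 of 8 genes between BC44 and HC11 (73.0% of all genes), 8 of 8 between BC44 and C57MG (87.9%) and 6 of 8 between HC11 and C57MG (86.2%). None of the 8 genes had both C57MG libraries below the 4 others, as 36.5% of all genes did. The median log2 difference of the 7 targets was 0.25, -0.36 and -0.56 in the same 3 contrasts, where that of all tested genes was 0.02, 0.04 and 0.03. No target was higher in HC11 than in C57MG by limma, at an adjusted or an unadjusted p-value under 0.05.

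**Figure D1:**
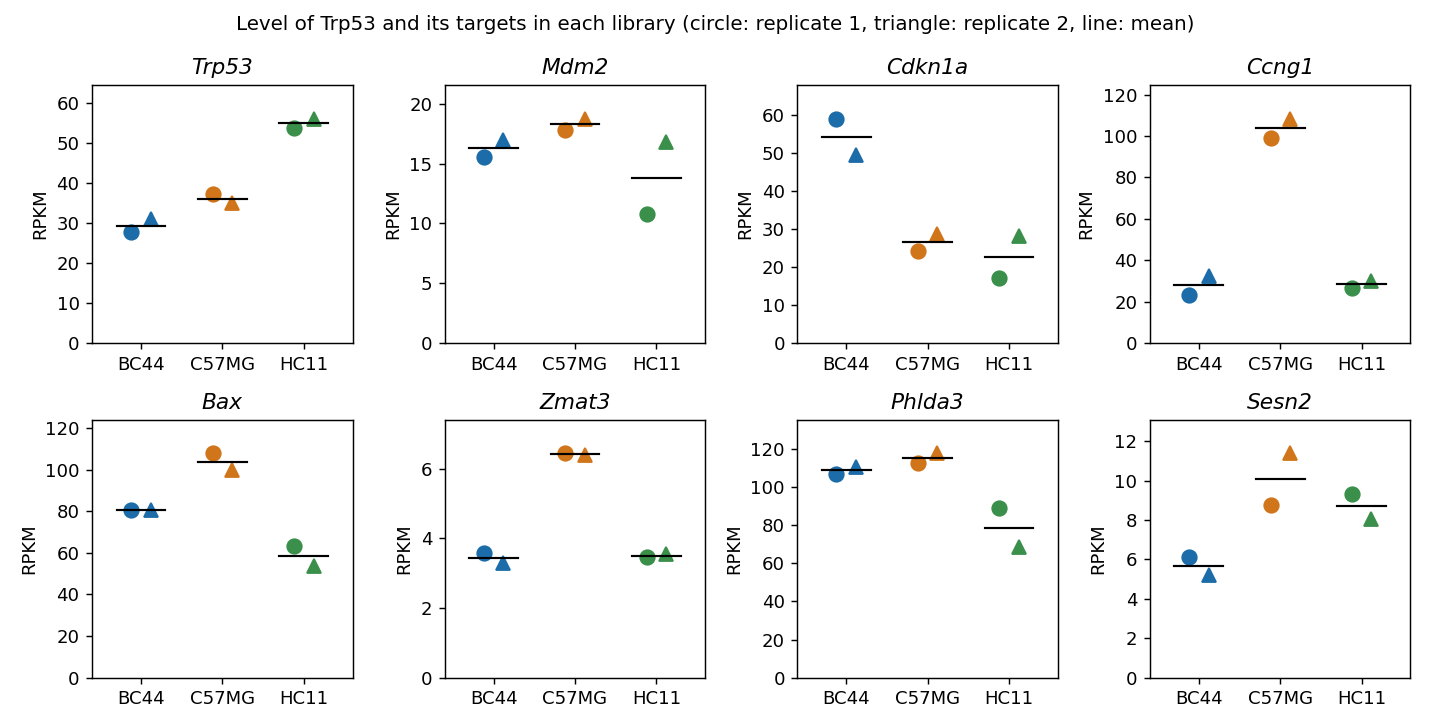
RPKM (vertical axes, from 0) of the 8 genes in each of the 6 libraries, by cell line; circles are replicate 1, triangles replicate 2 and lines the mean of 2 libraries. Trp53 is highest in HC11 (53.7 and 56.0), Cdkn1a in BC44 (58.9 and 49.3) and Ccng1 in C57MG (99.2 and 108).

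Mdm2, the inhibitor in the feedback loop, had 1 HC11 library that lay apart. It stood at 15.5 and 17.0 RPKM in BC44, at 17.8 and 18.8 in C57MG and at 10.8 and 16.8 in HC11. The HC11 libraries lay apart from each other, replicate 1 below every other library and replicate 2 within the BC44 range. Mdm2 passed in no contrast, with log2 differences of 0.25 (95% interval -0.17 to 0.67, limma adjusted p-value 0.285) for BC44 minus HC11, -0.16 (-0.58 to 0.26, 0.443) for BC44 minus C57MG and -0.41 (-0.83 to 0.01, 0.0713) for HC11 minus C57MG. The last interval reaches a difference of -0.83. Without HC11 replicate 2 the difference passed against both BC44 (0.55, 0.0113) and C57MG (-0.71, 0.00223), and without HC11 replicate 1 the difference from BC44 turned to -0.04 (0.756). With the replicate number as a block HC11 minus C57MG also passed (-0.41, 0.0255).

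Cdkn1a encodes p21, the inhibitor of cyclin-dependent kinases through which p53 halts the cell cycle. It was at 58.9 and 49.3 RPKM in BC44, at 24.2 and 28.7 in C57MG and at 17.0 and 28.0 in HC11. Both BC44 libraries were above the 4 others, as for 23.8% of all tested genes, while the C57MG and HC11 libraries overlapped. The BC44 mean was 2.41 times that of HC11 and 2.05 times that of C57MG. BC44 minus HC11 was 1.27 (SE 0.22) and BC44 minus C57MG 1.01 (SE 0.22), with limma adjusted p-values of 0.00245 and 0.00385. HC11 minus C57MG was -0.26 (95% interval -0.77 to 0.25, 0.310). It became -0.61 (0.0164) without HC11 replicate 2 and 0.09 (0.633) without HC11 replicate 1.

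The HC11 replicates differed more for Mdm2 and Cdkn1a than for most genes. Replicate 2 had 1.65 times the Cdkn1a and 1.55 times the Mdm2 of replicate 1, ratios larger than those of 94.2% and 92.5% of 10609 genes between the same libraries, whose median ratio was 1.12. Phlda3 went the other way, with 89.0 RPKM in replicate 1 and 68.3 in replicate 2. Trp53 differed by 1.04 times between them.

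Ccng1, which encodes cyclin G1, a p53 target that recruits a phosphatase to Mdm2, had the largest difference of the 8 genes. It reached 99.2 and 108 RPKM in C57MG, against 23.4 and 32.2 in BC44 and 26.7 and 29.9 in HC11. Both C57MG libraries stood above the 4 others, as for 32.4% of all tested genes, and the HC11 values lay between those of BC44. C57MG was 3.74 times BC44 (log2 difference -1.88 for BC44 minus C57MG, SE 0.15, limma adjusted p-value 1.62e-05) and 3.67 times HC11 (-1.84 for HC11 minus C57MG, SE 0.15, 2.14e-05). BC44 minus HC11 was -0.04 (95% interval -0.38 to 0.30, 0.839), with a sign that turned without BC44 replicate 1 (0.18) or HC11 replicate 2 (0.04). BC44 replicate 2 had 1.38 times the Ccng1 of replicate 1, a ratio larger than that of 90.2% of 10629 genes. The median mesenchymal percentage of BC44 replicate 2 would correspond to 2.65 RPKM of the C57MG mean of Ccng1, against 1.21 RPKM in replicate 1, and the part this had in the result was not tested.

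Zmat3, an RNA-binding zinc finger protein of the p53 response, was the lowest of the 8 genes and shared the pattern of Ccng1. It was at 6.44 and 6.40 RPKM in C57MG, at 3.58 and 3.30 in BC44 and at 3.46 and 3.54 in HC11. C57MG had 1.87 times the level of BC44 and 1.84 times that of HC11. Both differences passed, at -0.74 (SE 0.10, limma adjusted p-value 0.000306) for BC44 minus C57MG and -0.72 (SE 0.10, 0.000384) for HC11 minus C57MG. BC44 and HC11 overlapped, with a difference of -0.02 (95% interval -0.25 to 0.21, 0.893). Across the 6 libraries, 2 of each line, Pearson's r of log2(RPKM + 1) between Zmat3 and Ccng1 was 0.97, the highest of all pairs among the 8 genes.

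Bax, which encodes the pore-forming protein of the mitochondrial death pathway, was ordered C57MG, BC44, HC11. Its level stood at 108 and 99.9 RPKM in C57MG, at 80.8 and 80.7 in BC44 and at 63.3 and 53.9 in HC11, with no overlap between any of the lines. Both HC11 libraries were below the 4 others, as for 18.8% of all tested genes. C57MG had 1.77 times the level of HC11, a log2 difference of -0.82 for HC11 minus C57MG (SE 0.09, limma adjusted p-value 0.000152). The difference of BC44 minus HC11 was 0.46 (SE 0.09, 0.00562). BC44 minus C57MG was -0.36 (SE 0.09, 0.00997), which did not pass without C57MG replicate 1 (-0.30, 0.0725).

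Phlda3, which encodes a small pleckstrin-homology protein that restrains Akt, had the highest mean of the 8 genes in every line. It was at 107 and 111 RPKM in BC44, at 113 and 118 in C57MG and at 89.0 and 68.3 in HC11. The HC11 libraries were again below the 4 others, while BC44 and C57MG lay close together at -0.08 (95% interval -0.36 to 0.20, limma adjusted p-value 0.566). HC11 minus C57MG was -0.56 (SE 0.12, limma adjusted p-value 0.00433). Against BC44, the difference (BC44 minus HC11) was 0.47 (SE 0.12, 0.0149), which did not pass without BC44 replicate 1 (0.50, 0.0647) or BC44 replicate 2 (0.45, 0.0842). Pearson's r between Bax and Phlda3 was 0.92 over the same 6 libraries.

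Sesn2 encodes sestrin 2, a sensor that lowers mTORC1 signalling and that is also induced by the amino acid stress factor ATF4. It was lowest in BC44, at 6.10 and 5.20 RPKM, against 8.74 and 11.4 in C57MG and 9.33 and 8.05 for HC11. The C57MG and HC11 libraries overlapped, and both BC44 libraries lay below them. BC44 minus C57MG was -0.73 (SE 0.15, limma adjusted p-value 0.00285). The value for BC44 minus HC11 was -0.54 (SE 0.15, 0.0188), a call lost without BC44 replicate 2 (-0.45, 0.116) or without HC11 replicate 1 (-0.45, 0.0969). HC11 minus C57MG was -0.18 (95% interval -0.53 to 0.16, 0.292).

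**Figure D2:**
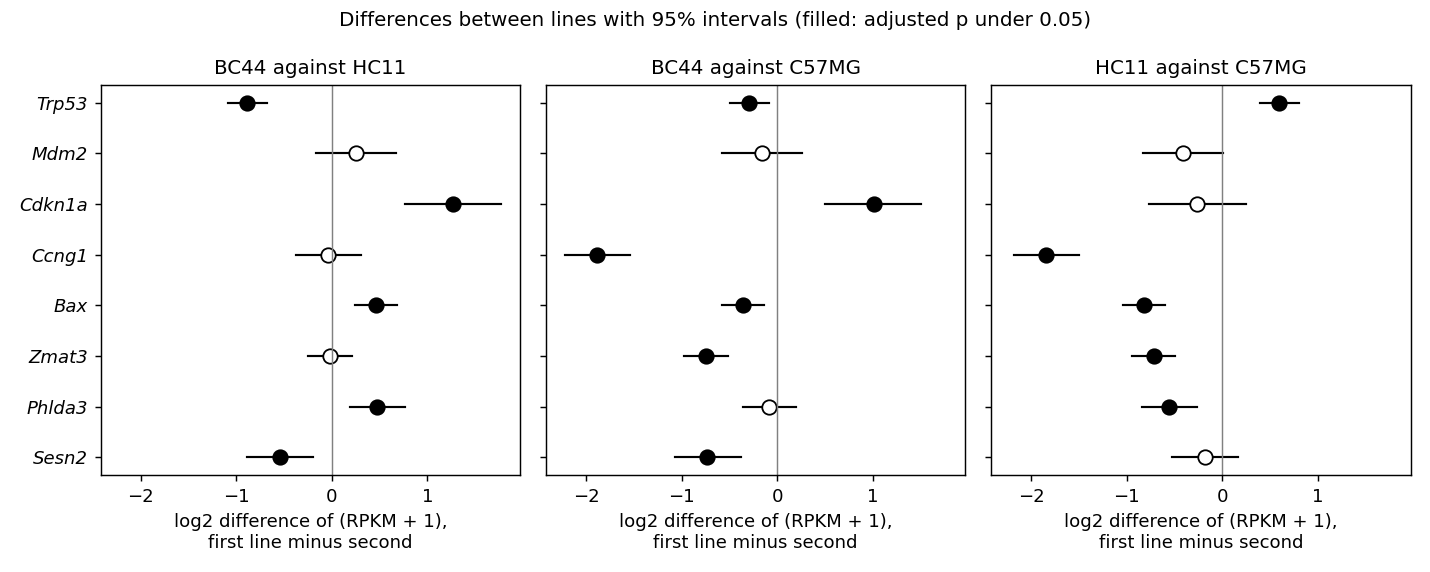
Log2 difference of RPKM + 1 (horizontal axes, first line minus second) of the 8 genes in the 3 contrasts, with 95% intervals from limma; filled points passed at an adjusted p-value under 0.05. Cdkn1a lies to the right in both contrasts of BC44 (1.27 and 1.01), and Ccng1 to the left in both contrasts with C57MG (-1.88 and -1.84).

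Set against Trp53 in the same library, the targets were lowest in HC11. The level of Cdkn1a divided by that of Trp53 stood at 2.14 and 1.59 in BC44, at 0.651 and 0.821 in C57MG and at 0.316 and 0.500 in HC11. For Mdm2 the ratio stood at 0.563 and 0.550 in BC44, at 0.480 and 0.538 in C57MG and at 0.201 and 0.300 in HC11. For 6 of the 7 targets both HC11 libraries were below the 4 others, the exception being Sesn2 (0.174 and 0.144 in HC11, 0.168 in BC44 replicate 2). The same held for 58.4% of all tested genes divided by Trp53, which was itself highest in HC11. Without the division, 2 of the 7 targets (Bax and Phlda3) had both HC11 libraries below the 4 others, against 18.8% of all genes. The summed level of the 7 targets stood at 377 and 391 RPKM in C57MG, at 295 and 298 in BC44 and at 220 and 209 in HC11, of which Bax and Phlda3 made up the larger part.

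**Figure D3:**
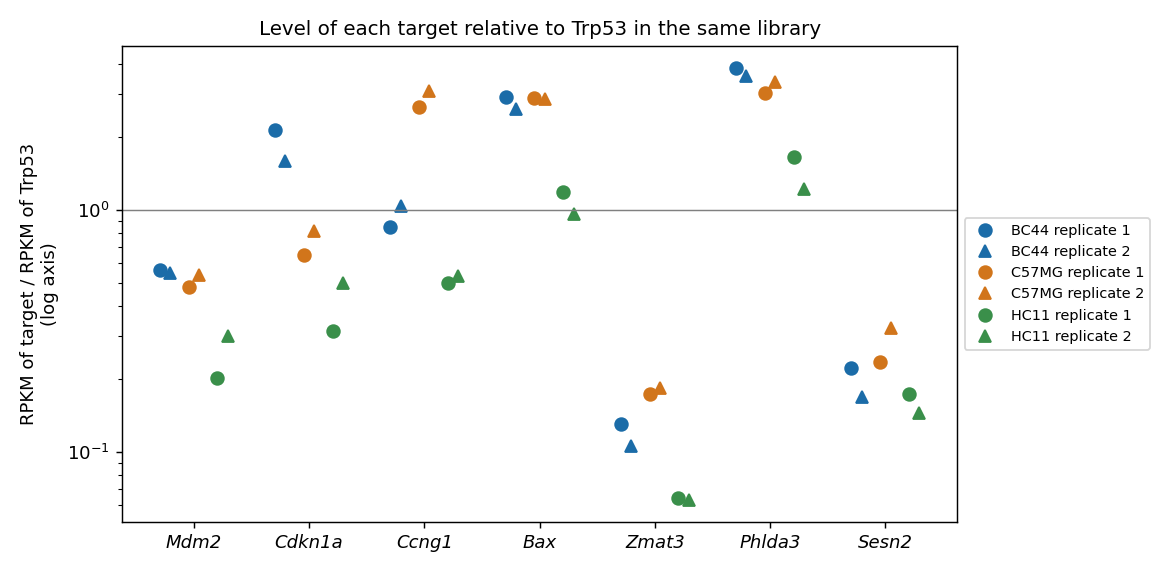
RPKM of each of the 7 targets divided by the RPKM of Trp53 in the same library (vertical axis, logarithmic), by gene and cell line; circles are replicate 1 and triangles replicate 2. HC11 points are lowest for all but Sesn2, whose HC11 values (0.174 and 0.144) overlap BC44 (0.221 and 0.168).

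For each of the 8 genes the 2 tested genes with the most similar profile over the 6 libraries were taken by Pearson's r of log2(RPKM + 1). Trp53 was most like Cct4, a chaperonin subunit (r = 0.998), which was at 134 and 136 RPKM in HC11, at 107 and 100 in C57MG and at 86.4 and 94.5 in BC44. It was followed by Ramp3, a receptor activity-modifying protein (r = 0.996). Cdkn1a was most like Ranbp6 (0.985) and Higd1a (0.979), and Mdm2 like Zfp160 (0.970) and 1700086O06Rik (0.967). Ccng1 was closest to AU021092 (0.999) and C1ra (0.998), Zmat3 to Arap1 (0.999) and Cyp4f16 (0.999), and Bax to Vps8 (0.997) and Ppp1r14c (0.997). Phlda3 was closest to Rbl2 (0.993) and Maz (0.991), and Sesn2 to Cmbl (0.986) and Romo1 (0.985). With 6 libraries in 3 pairs such values are a description, and none of the 8 genes was among the 2 nearest to another.

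The p53 family members Trp63 and Trp73 had their highest means in BC44, the line with the lowest Trp53. Trp63, whose product p63 maintains basal epithelial cells, was at 24.4 and 25.6 RPKM in BC44, at 20.5 and 17.8 in HC11 and at 5.86 and 6.98 in C57MG. The differences from C57MG were 1.81 for BC44 and 1.44 for HC11 (SE 0.11 each), with limma adjusted p-values of 5.15e-06 and 1.99e-05. Trp73 was at 3.70 and 4.75 RPKM in BC44 and was listed at 0 in both HC11 libraries, at least 113-fold lower than in BC44 when each HC11 library is set at a floor of 3 reads. In C57MG Trp73 was at 0.080 RPKM (an estimated 8 reads) in replicate 1 and at 0 in replicate 2. The epithelial markers Krt5 (16.0 and 0.148 RPKM), Krt14, Epcam, Cdh1 and Esrp1 were also higher in C57MG replicate 1 than in replicate 2. Krt8, Krt18 and Cldn3 were not. The part of this in the low C57MG replicate 1 values of Trp73 and of genes below was not tested.

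Cdkn2a, whose locus encodes the Mdm2 inhibitor p19Arf and the kinase inhibitor p16Ink4a, was the most abundant of these partners in BC44. It stood at 118 and 111 RPKM in BC44, at 70.7 and 71.3 in HC11 and at 13.1 and 12.6 in C57MG. The lines did not overlap, and the 2 products share an exon, so a value per gene does not tell them apart. The log2 differences were 3.06 for BC44 minus C57MG, 2.38 for HC11 minus C57MG and 0.68 for BC44 minus HC11 (SE 0.07 each, limma adjusted p-values 2.71e-07, 3.10e-07 and 0.000277). The neighbouring kinase inhibitor gene Cdkn2b followed the same order and stood at 13.7 and 12.3 RPKM in BC44, at 6.996 and 4.459 in HC11 and at 0.119 and 0 in C57MG. The C57MG values of Cdkn2b stand for an estimated 3 reads and 0 reads. Cdkn1b, the p27 gene, was at 24.1 and 21.1 RPKM in BC44, at 22.1 and 20.8 in HC11 and at 14.7 and 16.7 in C57MG.

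Mdm4, the Mdm2 relative that blocks p53's activation domain, was highest in C57MG. It was at 27.6 and 30.5 RPKM there, 18.6 and 19.2 in HC11, and 16.1 and 14.8 in BC44. BC44 minus C57MG was -0.87 and HC11 minus C57MG -0.59 (SE 0.09 each, limma adjusted p-values 7.91e-05 and 0.000692). The Mdm2 to Mdm4 ratio stood at 0.965 or more in BC44, at 0.645 and 0.615 in C57MG and at 0.582 and 0.874 in HC11.

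The relatives of the other targets did not all follow them. Sesn1, the sestrin gene best known as a p53 target, was at 27.1 and 29.6 RPKM in C57MG, at 6.60 and 6.74 in BC44 and at 3.48 and 2.66 in HC11. Its log2 difference from C57MG was -1.94 in BC44 and -2.86 in HC11 (SE 0.12 each, limma adjusted p-values 5.26e-06 and 9.02e-07). Sesn3, a sestrin gene driven by FoxO factors, was lower in HC11, at 11.2 and 7.72 RPKM, than in BC44 (32.6 and 26.6) or C57MG (32.2 and 32.0). Phlda1 was at 85.6 and 136 RPKM in HC11 and at 9.05 to 11.9 in the other 4 libraries, with -3.26 for BC44 minus HC11 and 3.22 for HC11 minus C57MG (SE 0.21 each, limma adjusted p-values 2.27e-05 and 7.42e-06). Phlda2 was at 6.87 and 8.10 RPKM in BC44, at 1.56 and 3.14 in HC11 and at 0.146 and 0 in C57MG. Ccng2, the relative of Ccng1, stood at 2.17 and 1.26 RPKM in BC44, at 2.64 and 3.52 in C57MG and at 3.57 and 4.81 in HC11, and so did not share the high C57MG level of Ccng1.

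Among the Bcl2 family, Bak1, the other main pore-forming gene, ranged from 54.1 to 67.3 RPKM and passed in no contrast (limma adjusted p-values 0.236 to 0.698 in the contrasts of BC44 and 0.118 in HC11 minus C57MG). Bok, a further pore former, was at 27.4 and 31.8 RPKM in C57MG, at 4.25 and 3.51 in HC11 and at 1.43 and 1.72 in BC44. The survival gene Bcl2l1 was highest in HC11, at 25.4 and 25.9 RPKM, against 18.7 and 16.4 in C57MG and 14.5 and 12.5 in BC44. BC44 minus HC11 was -0.88 and HC11 minus C57MG 0.53 (SE 0.10 each, limma adjusted p-values 0.000422 and 0.00263). Mcl1, another survival gene, had the order of Bax and stood at 81.3 and 73.9 RPKM in C57MG, at 56.3 and 61.8 in BC44 and at 41.4 and 46.1 in HC11. Bcl2 was at 4.49 and 4.42 RPKM in C57MG, at 1.86 and 1.64 in HC11 and at 1.02 and 1.08 in BC44.

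**Figure D4:**
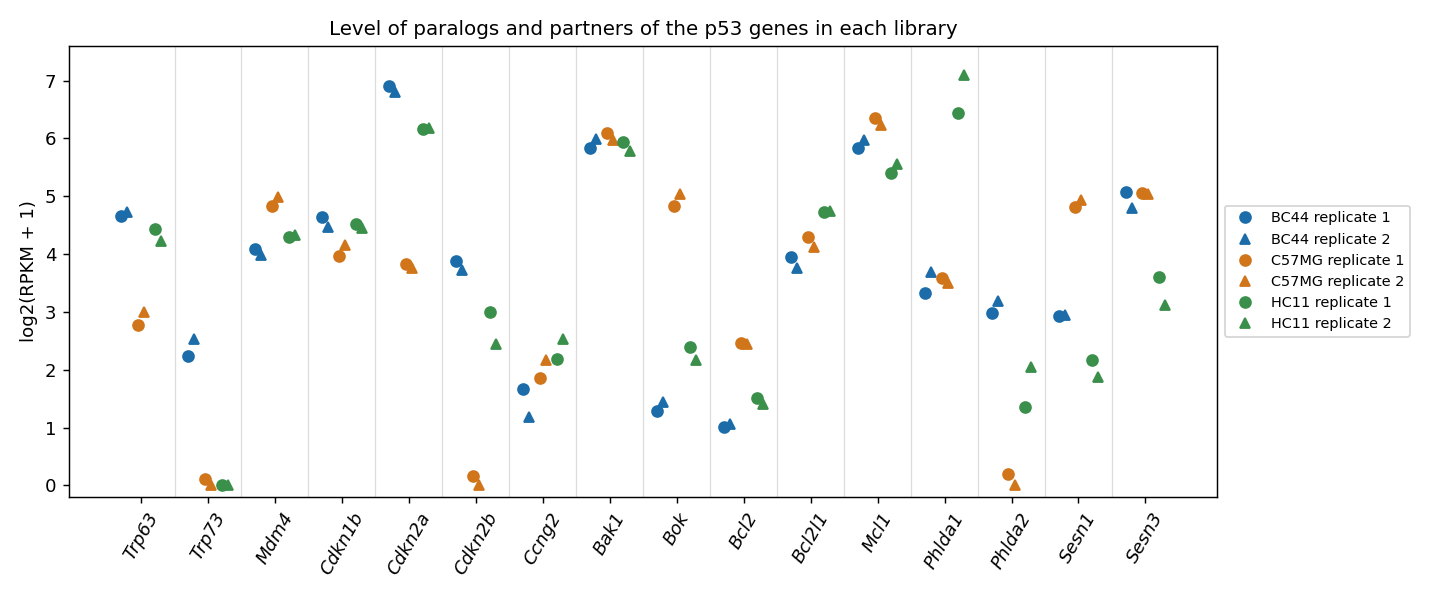
Log2(RPKM + 1) (vertical axis) of 16 paralogs and partners of the 8 genes in each library; circles are replicate 1 and triangles replicate 2, coloured by line. Cdkn2a spans 118 RPKM in BC44 replicate 1 to 12.6 in C57MG replicate 2, while Bak1 stays between 54.1 and 67.3 in every library.

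Of the 16 listed paralogs and partners with a row in the table, 8 had more RNA in BC44 and 6 more in HC11, 6 were higher in BC44 and 7 in C57MG, and 7 were higher in HC11 and 6 in C57MG. These are 87.5%, 81.2% and 81.2% of the 16, beside 47.7%, 71.7% and 70.5% of all tested genes. Cdkn1c was the listed gene without a row. The calls for Trp63 and Mdm4 between BC44 and HC11 (0.37, 0.0302 and -0.28, 0.0391) were lost without BC44 replicate 1, BC44 replicate 2 or HC11 replicate 2 (0.0611 to 0.166). For Mdm4 the call was also lost when any other single library was left out, under quantile normalization (-0.26, 0.0540) and with only the 4 libraries compared (-0.28, 0.0707).

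Of the 20 regulators of p53 with a row, BC44 had the higher level for 6 and HC11 for 0 (also at an unadjusted p-value under 0.05 by limma), where 47.7% of all genes differed, with a median log2 difference of 0.16 against 0.02 for all genes. Between BC44 and C57MG 9 were higher in BC44 and 4 in C57MG (median 0.18), and between HC11 and C57MG 5 were higher in HC11 and 8 in C57MG (median -0.18). In each of these contrasts with C57MG 65.0% of the regulators differed, below the 71.7% and 70.5% of all tested genes. Setd7, a lysine methyltransferase that acts on p53, was at 27.5 and 28.7 RPKM in BC44, at 21.7 and 23.5 in C57MG and at 16.7 and 15.0 in HC11. Atm, the kinase that signals DNA breaks to p53, was at 12.5 and 14.2 RPKM in BC44 and 7.58 and 9.13 in HC11, a difference of 0.62 (SE 0.12, limma adjusted p-value 0.00373). Sirt1, a deacetylase of p53, differed from C57MG by 1.11 in BC44 and 0.53 in HC11 (SE 0.13 each, limma adjusted p-values 0.000144 and 0.00735). Hipk2, a kinase of p53, was at 7.16 and 9.37 RPKM in C57MG and 2.77 to 3.52 elsewhere, and the DNA damage adaptor Mdc1 at 18.1 and 18.0 against 8.61 to 11.043. Npm1, a nucleolar partner of Arf and Mdm2, was at 448 and 442 RPKM in C57MG and 593 to 801 in the other lines.

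The other targets of p53 moved in both directions. Of 44 in the table, 14 were higher in BC44 and 12 in HC11, 19 were higher in BC44 and 18 in C57MG, and 18 were higher in HC11 and 15 in C57MG. The shares called, 59.1%, 84.1% and 75.0%, stood beside 47.7%, 71.7% and 70.5% of all genes, and the medians were 0.05, 0.01 and 0.02.

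Among the 11 genes of arrest and feedback, 3 and 4 were higher in BC44 and HC11 respectively, 4 and 4 in BC44 and C57MG, and 4 and 4 in HC11 and C57MG (63.6%, 72.7% and 72.7% called). The shares of all tested genes were 47.7%, 71.7% and 70.5%. Sfn, which encodes the epithelial 14-3-3 sigma protein, was at 437 and 468 RPKM in BC44, at 151 and 129 in HC11 and at 6.62 and 3.30 in C57MG. Sfn, Trp63 and the cell death gene Perp are also epithelial genes. The summed epithelial markers had the same order, 4824 to 5035 RPKM in BC44, 2226 to 3114 in HC11 and 65.5 to 137 in C57MG. Krt5 and Krt14 made up the larger part of that sum in every library. Krt5, Krt14, Cdh1 and Esrp1 had a higher mean in BC44 than in HC11, and Epcam, Krt8, Krt18 and Cldn3 a lower one. The part of the epithelial markers in the values of Sfn, Trp63 and Perp was not tested. Gadd45a and Plk3, which are also induced by stress signals other than p53, were highest in HC11, at 18.4 and 27.4 RPKM and at 34.1 and 54.7 RPKM, against 3.71 to 7.54 and 3.26 to 8.02 in the other lines. Trp53inp1, a p53-induced nuclear protein, was at 7.99 and 9.91 RPKM in C57MG, at 1.00 and 0.947 in BC44 and at 0.449 and 0.474 in HC11. Its log2 difference from C57MG was -2.33 in BC44 and -2.76 in HC11 (SE 0.12 each, limma adjusted p-values 1.86e-06 and 9.82e-07). Gtse1, a mitotic gene that restrains p53, was at 45.6 and 48.3 RPKM in C57MG and 16.0 to 20.2 elsewhere.

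Of the 15 cell death genes, 4 and 4 were higher in BC44 and HC11 respectively, 6 and 8 in BC44 and C57MG, and 5 and 5 in HC11 and C57MG (53.3%, 93.3% and 66.7% called). Of all tested genes 47.7%, 71.7% and 70.5% were called. The death receptor gene Fas was at 0.152 and 0.477 RPKM in BC44, against 9.43 and 10.1 in C57MG and 7.145 and 10.967 in HC11. Perp, a p53 target that also builds desmosomes, was at 792 and 680 RPKM in BC44, at 218 and 207 in HC11 and at 167 and 150 in C57MG. Eda2r, a receptor of the tumour necrosis factor family, was at 3.39 and 3.60 RPKM in C57MG and 0.128 to 0.186 in the other lines, with -1.93 for BC44 minus C57MG and -1.99 for HC11 minus C57MG (SE 0.09 each, limma adjusted p-values 1.11e-06 and 1.18e-06). Pmaip1, the Noxa gene, was at 1.34 and 1.86 RPKM in BC44, at 0.712 and 1.87 in HC11 and at 0.021 and 0 in C57MG. Bcl2l11, the Bim gene, was at 0.358 and 0.364 RPKM in BC44, at 2.65 and 3.48 in C57MG and at 1.48 and 3.01 in HC11. Dram1, an autophagy gene, was at 9.36 and 9.86 RPKM in C57MG, at 6.90 and 7.38 in BC44 and at 5.39 and 4.52 in HC11. HC11 minus C57MG was -0.84 for Dram1 (SE 0.11, limma adjusted p-value 0.000332).

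Of the 18 genes of repair, metabolism and redox, 7 and 4 were higher in BC44 and HC11 respectively, 9 and 6 in BC44 and C57MG, and 9 and 6 in HC11 and C57MG (61.1%, 83.3% and 83.3% called). Among all tested genes these shares were 47.7%, 71.7% and 70.5%. On the log2(RPKM + 1) scale Ephx1, an epoxide hydrolase, had the widest range of these genes. It was at 228 and 249 RPKM in C57MG, at 46.1 and 45.2 in BC44 and at 2.605 and 2.158 in HC11. HC11 minus C57MG was -6.15 (SE 0.09, limma adjusted p-value 6.57e-08). Ak1, an adenylate kinase, was at 144 and 133 RPKM in C57MG, at 17.2 and 21.4 in BC44 and at 12.3 and 10.5 in HC11. Lif, a secreted cytokine with many inducers beside p53, was at 55.0 and 99.2 RPKM in HC11, at 2.89 and 4.47 in BC44 and at 0.903 and 0.656 in C57MG. Pltp, a phospholipid transfer protein, was at 26.5 and 18.7 RPKM in BC44, at 7.12 and 3.92 in HC11 and at 1.45 and 0.937 in C57MG.

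**Figure D5:**
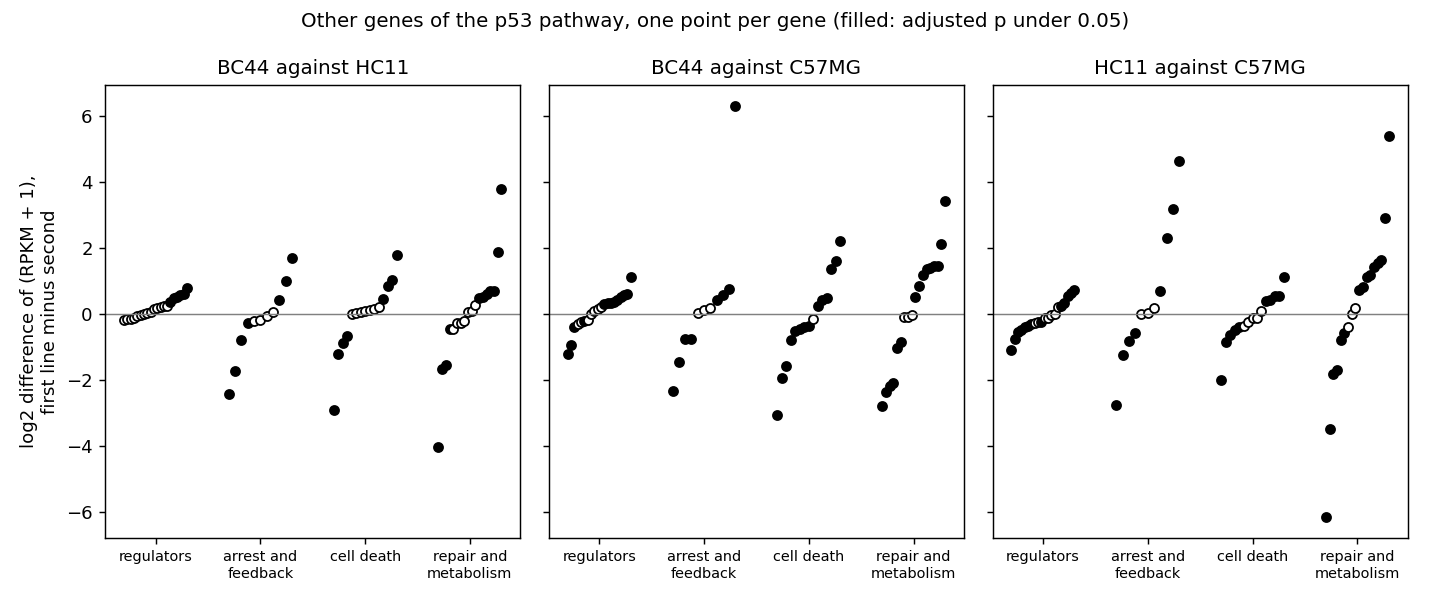
Log2 difference of RPKM + 1 (vertical axis, first line minus second) of the other p53 pathway genes, one point a gene, by list and contrast; filled points passed at an adjusted p-value under 0.05. The widest range is in repair and metabolism, from -6.15 (Ephx1) to 5.40 (Lif) in HC11 against C57MG.

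Genes of proliferation, many of which fall when p21 is induced, did not show 1 direction in the line with the most Cdkn1a. The part of p21 in their levels was not tested. Of 13 such genes, 4 were higher in BC44 and 3 in HC11, 4 were higher in BC44 and 5 in C57MG, and 2 were higher in HC11 and 4 in C57MG. The shares called were 53.8%, 69.2% and 46.2%, beside 47.7%, 71.7% and 70.5% of all tested genes. The cyclin gene Ccna2 was at 226 and 250 RPKM in BC44, at 158 and 168 in C57MG and at 155 and 149 in HC11. Birc5, the survivin gene, was at 125 and 125 RPKM in HC11, at 59.0 and 59.9 in C57MG and at 46.1 and 47.4 in BC44. Cdc20, an activator of the anaphase ligase, was lowest in HC11 at 63.8 and 59.0 RPKM, against 83.3 to 96.7 elsewhere. The replication clamp gene Pcna and the mitotic kinase gene Cdk1 were highest in C57MG, at 227 and 225 RPKM and at 88.3 and 93.8 RPKM. Ccne1, the cyclin E1 gene, was at 30.035 and 28.763 RPKM in BC44, at 22.6 and 27.2 in HC11 and at 4.84 and 4.73 in C57MG.

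Of 8 ATF4 targets, listed because ATF4 also drives Sesn2, 2 and 2 were higher in BC44 and HC11 respectively, 5 and 0 in BC44 and C57MG, and 6 and 0 in HC11 and C57MG. The counts of 0 were also 0 at an unadjusted p-value under 0.05 by limma. The shares called were 50.0%, 62.5% and 75.0%, near the 47.7%, 71.7% and 70.5% of all tested genes, where BC44 was the higher line for 37.5% (C57MG for 34.1%) and HC11 for 37.4% (C57MG for 33.2%). The medians were -0.17, 1.26 and 1.47. Sesn2 lay in the opposite direction to the list median between BC44 and C57MG (-0.73) and in the same direction between BC44 and HC11 (-0.54). For HC11 minus C57MG it did not pass (-0.18). The part of ATF4 in the level of Sesn2 was not tested. Slc7a11, the cystine transporter gene, was at 5.40 and 5.74 RPKM in BC44, at 7.70 and 7.66 in HC11 and at 0.266 and 0.190 in C57MG. Trib3, a pseudokinase gene, was at 40.3 and 26.2 RPKM in HC11 and 9.98 to 11.8 elsewhere. Vldlr, a lipoprotein receptor gene, and Atf3, a stress transcription factor gene, were near 0 in C57MG (0.027 and 0 RPKM, and 0.028 and 0 RPKM), against 5.31 to 10.5 and 5.43 to 11.05 elsewhere.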

How the data were processed

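Poly(A) RNA of 3 cell lines was sequenced with 2 libraries a line. RPKM was computed and deposited by the authors, 1 value per gene and library, and the name of the deposited table gives the unit. STAR and mouse build mm9 appear in the submitters' processing notes, and the counter, annotation, gene lengths and use of strand are not given in the sources used here, so overlapping genes and near-identical copies are uncertain. Coordinates are those of the RefSeq promoter table (GRCm38.p6) and were not used with the values. Depth was estimated from the steps of low RPKM times GENCODE M21 exon length: 77.5% to 83.5% of 194 to 308 low values a library lay within 0.15 of a whole read. Reads and floors are estimates and cover counting error only.

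The test was limma 3.58.1 in R 4.3.3 (lmFit, eBayes with trend), applied to log2(RPKM + 1) of the 10759 genes with at least 1 RPKM in at least 2 libraries. All 6 libraries shared 1 estimate of the spread, and p-values were two-sided and Benjamini-Hochberg adjusted within a contrast, with a threshold of 0.05. Fold changes on this scale understate low genes. An exact permutation test of 2 against 2 libraries cannot go below 0.33. On simulated data 189 of 200 changed genes were called in BC44 against HC11 among 10251 genes, with 10 wrong calls. There the changes had a single size, and no other gene differed between the lines. That size was larger than every difference of the 8 genes except those of Ccng1 from C57MG. The result thus does not measure the power for the smaller differences reported here. Tables and figures used Python 3.11.15, pandas 2.3.3 and matplotlib 3.10.9.

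The members and lists were chosen with earlier results of these data known. The text names the 8 genes, all listed paralogs and partners, genes among the 3 largest non-overlapping called differences of each other list and contrast, and the 2 genes most like each member. Marker genes were named for identity. The alternatives were a pseudocount of 0.1, 2 other filters, 2 normalizations, only the 4 libraries compared, 2 variance settings, the replicate number as a block, and omitting each library in turn.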

Additional observations from a re-analysis of the deposited data

How the results depend on the processing

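Of the differences of the 8 genes under each alternative, 340 kept direction and side of the threshold, 7 lost their call, 4 gained one and 6 turned. The 2 filters, the 2 variance settings, the replicate block and the 4 libraries alone leave a log2 difference as it is. So does omitting a library of the line not compared. Under these alternatives the call could change but the direction could not. The counts of genes called stayed within 1.5 times in all 90 cases. Quantile normalization turned BC44 minus HC11 for Zmat3 (0.01) and Npm1 (0.03), neither called. It also ended the call of Mdm4 there (-0.26, limma adjusted p-value 0.0540), as did using only the 4 libraries compared (-0.28, 0.0707). Among the other named genes 2007 differences kept direction and side, 53 lost their call, 6 gained one and 13 turned. Median-ratio scaling divided all genes of a library by the same factor (0.9803 to 1.026). A mean was counted as moved where it changed by at least the SD of the 2 libraries. That was so for Bax in BC44 (80.74 to 79.35 RPKM) and Zmat3 in C57MG (6.419 to 6.528 RPKM), whose SDs were small (0.0198 and 0.0269). Leaving out 1 library gave these ranges for BC44 minus HC11: Mdm2 -0.04 to 0.55, Ccng1 -0.27 to 0.18, Zmat3 -0.07 to 0.03, Phlda3 0.29 to 0.66 and Sesn2 -0.64 to -0.45. Among other genes in that contrast they were -0.02 to 0.16 for Cdkn1b, -0.03 to 0.13 for Bak1, -0.31 to 0.04 for Npm1, -0.15 to 0.60 for Pmaip1, -0.07 to 0.06 for Cdk1 and -0.82 to 0.08 for Atf3. For BC44 minus C57MG they were -0.37 to -0.21 for Trp53, -0.41 to -0.30 for Bax, -0.21 to 0.14 for Phlda1 and -0.26 to 0.02 for Sesn3. For HC11 minus C57MG they were -0.71 to -0.12 for Mdm2, -0.61 to 0.09 for Cdkn1a and -0.40 to 0.15 for Fas. A line left with 1 library was assumed to vary like the others, and the causes were not tested. Same-numbered libraries share only a number: their deviations correlated at 0.354, -0.039 and 0.038 in the 3 contrasts. With the replicate block 5350, 7875 and 7721 genes were called (5129, 7713 and 7590 without), and of the 8 genes it changed the call of Mdm2 in HC11 minus C57MG alone (-0.41, limma adjusted p-value 0.0255).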
